A study of Mus musculus with 6 samples.

Results

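The lysyl oxidases Lox, Loxl1, Loxl2, Loxl3 and Loxl4 and transglutaminase 2 (Tgm2), the enzymes that crosslink the extracellular matrix, were taken by gene symbol from a table of read counts in obstructed mouse kidneys. All 6 symbols were found, out of 34714 gene rows, and all 6 passed the filter on low counts. The kidneys came from male mice that were 8 weeks old. In all of them the left ureter had been tied off under pentobarbital anaesthesia (unilateral ureteral obstruction, UUO, an operation after which the kidney scars), and the kidney was collected 10 days later. The 3 knockout libraries came from miR-92b-/- mice, a purchased line on a C57BL/6JGpt background in which the microRNA gene Mir92b is deleted in every tissue. The 3 wild-type libraries came from C57BL/6J mice. The named substrain thus differed along with the genotype, and the effects of each cannot be told apart. The labels' treatment text calls ligated kidneys nonfibrotic controls, while each library is labelled as UUO. No sham-operated kidney was analysed here, so the values compare the genotypes after obstruction and do not show what obstruction itself did. The labels do not state that the replicates are separate animals, and p-values measure the spread between these libraries.

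Lysyl oxidases are secreted copper enzymes that oxidise lysine side chains of collagen and elastin to aldehydes, which then condense into covalent crosslinks. Lox and Loxl1 are released as proenzymes and cleaved outside the cell by BMP1-type proteases, whereas Loxl2, Loxl3 and Loxl4 carry scavenger receptor domains in place of the propeptide. Transglutaminase 2 is a calcium-dependent enzyme that joins glutamine to lysine residues and also binds fibronectin at the cell surface. In scarring kidneys both enzyme families are known for making deposited matrix stiffer and harder to degrade.

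The deleted microRNA acts through its seed, bases 2 to 8 of the mature strand, so the annotated 3′ UTRs of the 6 genes were read for matches to it. The mature sequence is given from RefSeq (GRCm38.p6, chr3:89227126-89227147, minus strand), with the seed in capitals.
miR-92b-3p: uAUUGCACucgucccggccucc
The motifs searched, on the transcribed strand only, were GTGCAATA (8mer), GTGCAAT (7mer-m8), TGCAATA (7mer-A1) and TGCAAT (6mer), each shorter motif being counted only outside a longer match. Lox had 1 match of the 7mer-m8 type, its 6-base core starting at position 1065 of its 3160-nt 3′ UTR. Loxl2 and Loxl4 had 1 match of the 6mer type each. These are shown from the GENCODE M21 transcripts (GRCm38) with the match in capitals, because they are the only matches of printable sequence among the members.
Loxl2 (chr14:69694908-69694934, plus strand): ctgtattccaTGCAATtatagccacga
Loxl4 (chr19:42594499-42594525, minus strand): cttaaactttTGCAATtgagaagaaat
Loxl1, Loxl3 and Tgm2 had 0 matches of any type in 3′ UTRs of 1173, 1689 and 1399 nt. Of 20163 genes of the table with an annotated 3′ UTR, whose median length was 986 nt, 12.9% held a match of 7 or 8 bases and 24.9% a match of any type. The same seed is carried by miR-25-3p, miR-32-5p, miR-92a-3p, miR-363-3p and miR-367-3p, so a match is not particular to miR-92b-3p. A match is a description of the letters and does not show a working site.

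The 6 libraries held between 38738204 and 51932509 counts. All 10 kidney epithelial markers (such as Lrp2, Umod and Aqp2) were detected in all libraries, and their summed level was 2333 to 7455 CPM (read counts scaled to library depth with TMM) in the knockout and 3527 to 6850 CPM in the wild type. The summed adipocyte markers stood at 737, 231 and 285 CPM in the knockout libraries and 283, 325 and 509 CPM in the wild-type libraries. The adipocyte gene Cfd, at 124, 0.365 and 2.38 CPM in the knockout libraries and 1.34, 30.7 and 0.404 CPM in the wild-type libraries, set knockout replicate 1 apart, and this was the knockout library in which all 5 lysyl oxidases were lowest. The 509 CPM of wild-type replicate 3 were mostly Lpl, at 448 CPM, which other cells also express. The part of these markers in the results was not tested. The summed skeletal muscle markers stood at 0.923 to 1.11 CPM in the knockout and 5.40 to 5.95 CPM in the wild type. Of these 6 markers, 5 lay lower in every knockout library than in any wild-type library, against 7.2% of all genes tested. The cause of this difference between the groups was not tested. The table has no row for Mir92b, so the deletion could not be checked in these libraries.

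The lysyl oxidases Loxl2, Loxl1 and Lox averaged 1.77, 1.68 and 1.53 times the wild-type level in the knockout, and Tgm2 averaged 1.35 times, but none passed the test over all genes. Of the 6 enzymes, 0 were called higher and 0 lower with edgeR at an adjusted p under 0.05, where 0% of the 18927 genes tested were called in either direction. At an unadjusted p under 0.05, 1 of the 6 (Loxl2) was higher and 0 were lower, against 4.38% and 3.52% of all genes. DESeq2 called 0 of the 6, against 0.18% of all genes called higher and 0.148% lower, and limma-voom also called 0 of the 6, against 0.00528% higher and 0.0106% lower. The fold change lay above 0 for all 6, against 47.7% of all genes, and their middle log2 fold change (median) was 0.53, against -0.018 for all genes. In bulk tissue, a difference in the number of cells that express a gene and a difference in RNA per cell cannot be told apart.

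**Figure D1:**
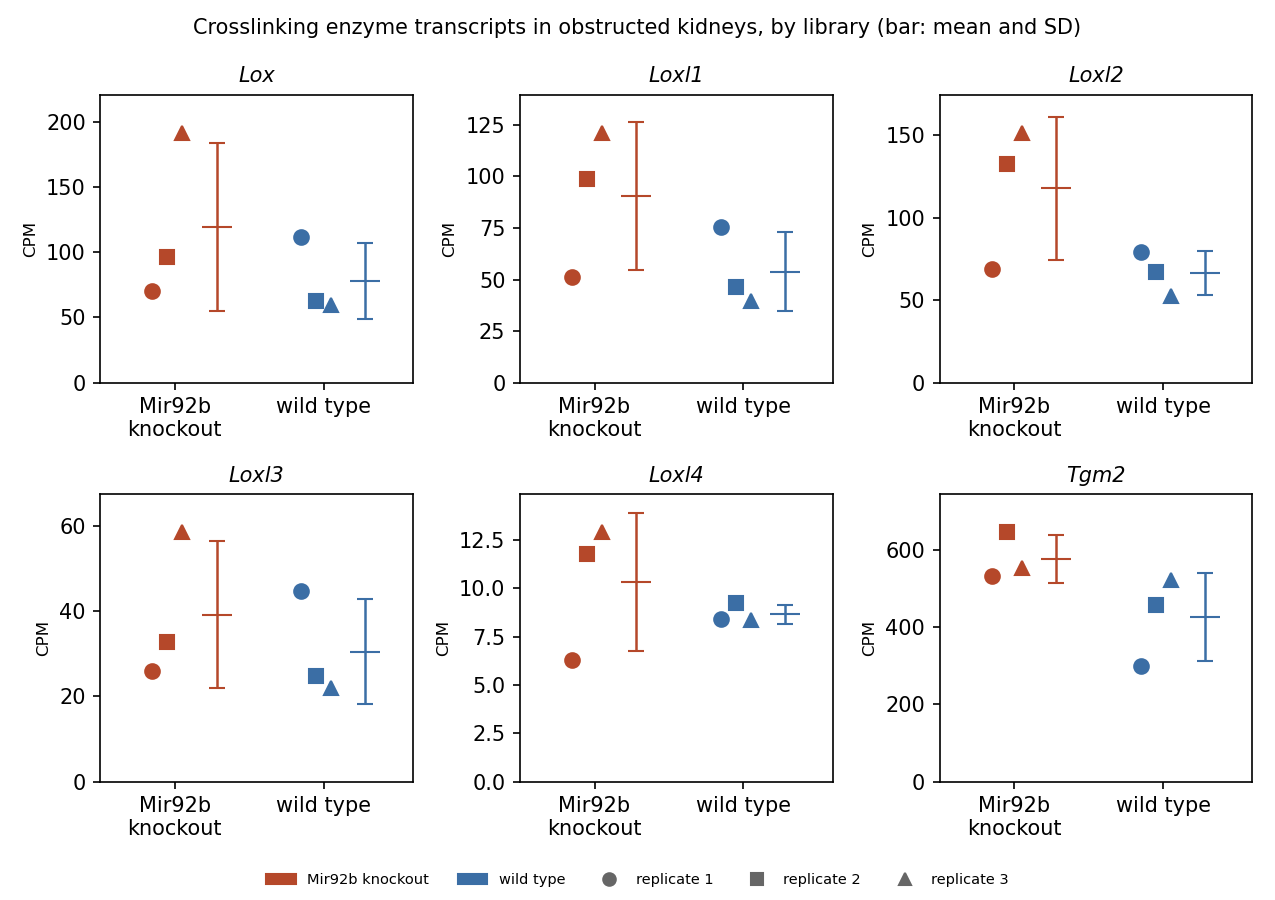
Level of each enzyme in CPM (y axis, from 0) for 3 Mir92b knockout and 3 wild-type libraries; symbols give the replicate number and bars the mean and SD. Knockout replicate 3 is the highest library for each lysyl oxidase, and for Tgm2 all 3 knockout libraries lie above the wild-type libraries.

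Lox, the founding member, which crosslinks fibrillar collagen and elastin, is a gene on chromosome 18 (52516060 to 52529867, GRCm38, minus strand). It measured 70.0, 96.3 and 192 CPM in the knockout libraries 1 to 3, against 112, 62.5 and 59.7 CPM in the wild-type libraries 1 to 3. Knockout replicate 3 stood far above the other libraries, and wild-type replicate 1 lay above the other 2 knockout libraries, so the groups overlapped. The means were 119 ± 64.2 CPM in the knockout and 78.0 ± 29.2 CPM in the wild type (SD, n = 3 each). The log2 fold change was 0.61 ± 0.40 (SE; 95% interval -0.31 to 1.54), with an edgeR adjusted p of 0.661. It was 0.092 without knockout replicate 3, -0.065 without replicate 3 of both groups and 0.96 without wild-type replicate 1.

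Loxl1, which acts mainly on elastic fibres, lies on chromosome 9 (58287723 to 58313212, minus strand). Its level was 51.2, 98.8 and 121 CPM in the knockout libraries, against 75.6, 46.4 and 39.6 CPM in the wild-type libraries. Knockout replicates 2 and 3 were above every wild-type library, while knockout replicate 1 fell among them. The groups averaged 90.4 ± 35.8 CPM in the knockout and 53.9 ± 19.1 CPM in the wild type (SD, n = 3 each). The log2 fold change of 0.75 ± 0.35 (95% interval -0.066 to 1.56) had an edgeR adjusted p of 0.627. Without knockout replicate 3 it was 0.48, and 0.30 without replicate 3 of both groups.

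Loxl2, which crosslinks basement membrane collagen IV as well as fibrillar collagen, lies on chromosome 14 (69608692 to 69695834, plus strand) and had the smallest p of the 6. It measured 69.0, 133 and 152 CPM in the knockout libraries, against 79.4, 67.3 and 52.7 CPM in the wild-type libraries. The overlap came from 1 knockout library, replicate 1, which lay below wild-type replicate 1. The means were 118 ± 43.3 CPM in the knockout and 66.5 ± 13.4 CPM in the wild type (SD, n = 3 each). The log2 fold change was 0.83 ± 0.29, with a 95% interval of 0.15 to 1.502, an unadjusted p of 0.0227 and an edgeR adjusted p of 0.627. Over the alternatives its adjusted p ranged from 0.299 with limma-voom to 0.971 without knockout replicate 2, and the fold change was 1.10 without knockout replicate 1 and 0.46 without replicate 3 of both groups. Without strand in the counting, reads in 301 nt that it shares with the opposite-strand gene Gm27177 cannot be assigned.

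Loxl3, a lysyl oxidase needed for palate and spine development in mice, lies on chromosome 6 (83034205 to 83052566, plus strand) and shares 535 nt with Htra2 on the other strand. Its level was 26.001, 32.8 and 58.8 CPM in the knockout libraries, against 44.7, 24.9 and 21.9 CPM in the wild-type libraries. As with Lox, the highest value of each group was knockout replicate 3 and wild-type replicate 1. The log2 fold change was 0.36 ± 0.36 (95% interval -0.49 to 1.21; edgeR adjusted p = 0.755). Its sign turned without knockout replicate 3 (-0.052) and without replicate 3 of both groups (-0.24).

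Loxl4, the weakest expressed of the family, lies on chromosome 19 (42592279 to 42612806, minus strand). It stood at 6.27, 11.8 and 12.95 CPM in the knockout libraries, against 8.42, 9.23 and 8.36 CPM in the wild-type libraries. The 3 wild-type libraries were close together and the knockout libraries spread to both sides of them. The means were 10.3 ± 3.57 CPM in the knockout and 8.67 ± 0.482 CPM in the wild type (SD, n = 3 each). The log2 fold change was 0.25 ± 0.28 (95% interval -0.40 to 0.91; edgeR adjusted p = 0.776), and 0.060 without knockout replicate 3.

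Tgm2 lies on chromosome 2 (158116405 to 158146392, minus strand) and shares exon sequence on the other strand with Rprd1b (370 nt) and Gm20412 (633 nt). It measured 531, 647 and 551 CPM in the knockout libraries, against 299, 456 and 522 CPM in the wild-type libraries. All 3 knockout libraries were above all 3 wild-type libraries, the nearest pair being knockout replicate 1 and wild-type replicate 3. Tgm2 was the 1 member of 6 whose groups did not overlap in this direction, as was the case for 8.95% of all genes tested; for 7.2% all knockout libraries lay below. The means were 576 ± 62.1 CPM in the knockout and 426 ± 114 CPM in the wild type (SD, n = 3 each). The log2 fold change was 0.44 ± 0.23, with a 95% interval of -0.10 to 0.98 and an edgeR adjusted p of 0.638. The lowest library, wild-type replicate 1, was the one in which the lysyl oxidases other than Loxl4 stood highest in the wild type; without it the fold change of Tgm2 was 0.24, and without replicate 3 of both groups it was 0.64. The summed macrophage markers, a cell type that also expresses Tgm2, were likewise higher in every knockout library, at 1640, 1904 and 1979 CPM in the knockout against 1349, 1438 and 1413 CPM in the wild type. Lyz2 was the largest part of this sum, at 785, 930 and 1033 CPM in the knockout against 567, 657 and 658 CPM in the wild type. All 8 of these markers had a fold change above 0 (median 0.32), Cd68 being at 0.031, and none was at 0 in all libraries. For 4 of the 8 the groups did not overlap, against the 8.95% of all genes. The part of these markers in the result was not tested.

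**Figure D2:**
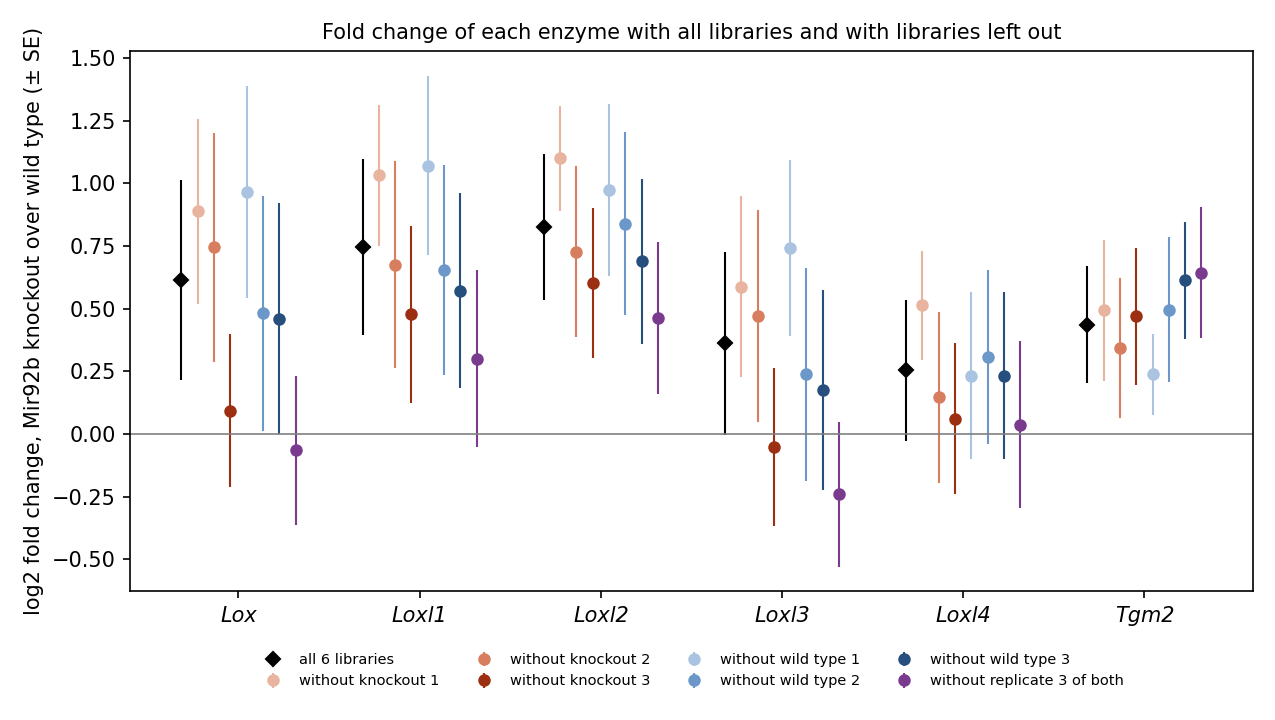
Log2 fold change of each enzyme, knockout over wild type (y axis, with SE), with all 6 libraries (diamonds) and with the named libraries left out (circles). Without knockout replicate 3 Lox is at 0.092 and Loxl3 at -0.052, whereas Loxl2 is at 0.60 and Tgm2 at 0.47.

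The 5 lysyl oxidases thus shared their highest library. Knockout replicate 3 was the highest of the 6 libraries for all 5, and this was so for 18.8% of all genes tested. Its distance from knockout replicate 2 was smaller for Loxl2 (152 against 133 CPM) and Loxl4 (12.95 against 11.8 CPM) than for Lox (192 against 96.3 CPM). The ratio of the highest to the lowest library within the knockout was 2.74 for Lox, 2.37 for Loxl1, 2.20 for Loxl2, 2.26 for Loxl3 and 2.07 for Loxl4, but 1.22 for Tgm2. Within the wild type Tgm2 was not the least spread. The ratio there was 1.87 for Lox, 1.91 for Loxl1, 1.51 for Loxl2, 2.04 for Loxl3, 1.10 for Loxl4 and 1.74 for Tgm2. The summed stromal markers were also highest in knockout replicate 3, though not every single marker was. The 8 fibroblast markers summed to 1151, 1898 and 2866 CPM in the knockout libraries, against 1645, 1163 and 902 CPM in the wild-type libraries. The 8 endothelial markers summed to 476, 787 and 1221 CPM in the knockout, against 956, 526 and 536 CPM in the wild type. Those of smooth muscle and pericytes summed to 353, 695 and 1008 CPM in the knockout, against 882, 499 and 377 CPM in the wild type. No marker of these 3 lists was at 0 in all libraries. Knockout replicate 3 was also the library with the lowest kidney epithelial sum, at 2333 CPM.

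Each enzyme was therefore set against the summed fibroblast markers of its own library. Most of this sum was Col1a2, a collagen chain that is itself a lysyl oxidase substrate. Col1a2 stood at 693, 1164 and 1942 CPM in the knockout libraries and 1059, 684 and 536 CPM in the wild-type libraries. The ratio is thus weighted to this transcript and is not a measure of fibroblast number. On the log2 scale, Lox stood at -4.04, -4.30 and -3.90 in the knockout libraries, against -3.88, -4.22 and -3.92 in the wild-type libraries. These 6 values spanned less than the Lox levels themselves did, and the groups overlapped. The difference, knockout minus wild type, was -0.0765 for Lox, 0.093 for Loxl1 and 0.15 for Loxl2. It was -0.27 for Loxl3, -0.43 for Loxl4 and -0.15 for Tgm2. With 3 libraries against 3 the exact two-sided permutation test cannot go below 0.1, and over these 6 tests the p-values were 0.2 to 0.8 and the Benjamini-Hochberg adjusted p-values 0.72 to 0.8. Loxl2 stood at -4.06, -3.84 and -4.24 in the knockout libraries, against -4.37, -4.11 and -4.10 in the wild-type libraries, so its ratio also overlapped. Tgm2 was spread differently, at -1.12, -1.55 and -2.38 in the knockout libraries and -2.46, -1.35 and -0.79 in the wild-type libraries. It was lowest relative to fibroblast markers in the 2 libraries where those markers were highest in their group. The fibroblast sum is the denominator of this ratio, so that order follows in part from the ratio itself.

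**Figure D3:**
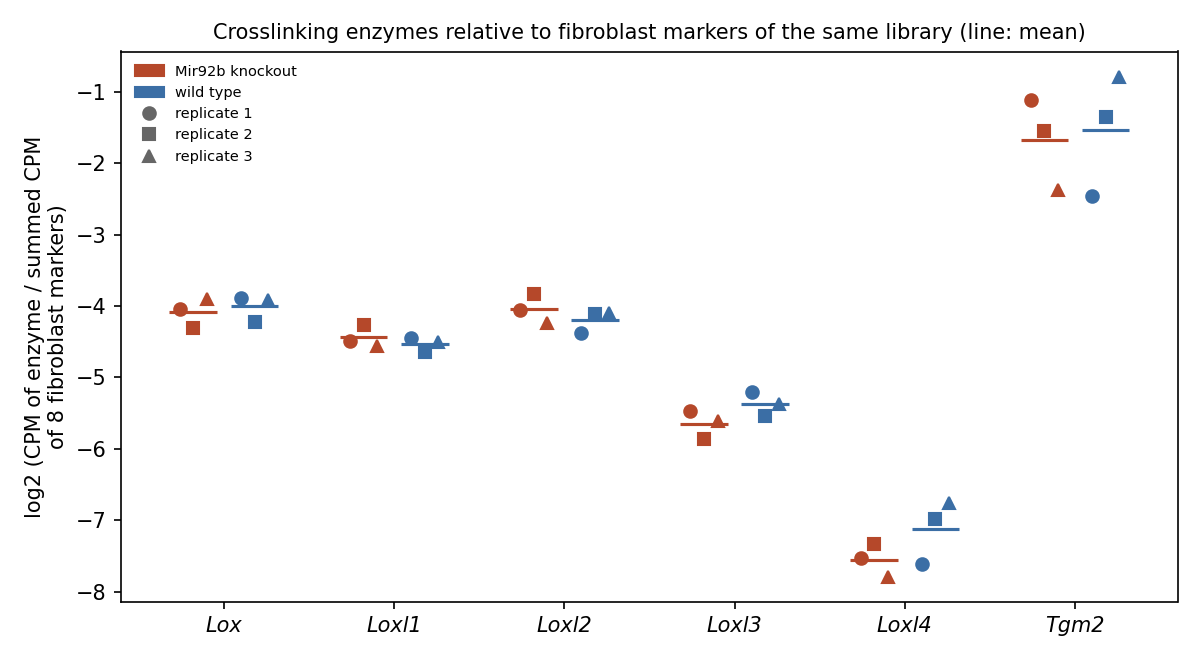
Log2 ratio of each enzyme to the summed CPM of 8 fibroblast markers of the same library (y axis); symbols give the replicate number and lines the group mean. The 6 values of Lox lie between -4.30 and -3.88, while those of Tgm2 lie between -2.46 and -0.79.

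Set against the 8 endothelial markers in place of the fibroblast markers, the mean difference, knockout minus wild type, was 0.29 for Lox, 0.46 for Loxl1 and 0.51 for Loxl2. The groups did not overlap for Lox and Loxl1, which gave an exact permutation p of 0.1 each, the smallest possible, and an adjusted p of 0.3. The share of all genes without overlap on this scale was not computed, so the separation has no background to be read against. Loxl3, Loxl4 and Tgm2 differed by 0.093, -0.067 and 0.22 on that scale, with overlap.

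Levels of different enzymes were compared per kilobase of the longest annotated transcript. Tgm2 was the most abundant of the 6, at 160 ± 17.3 CPM per kb in the knockout and 118 ± 31.8 CPM per kb in the wild type (SD, n = 3 each). Loxl1 stood at 27.4 ± 10.9 CPM per kb in the knockout and 16.3 ± 5.80 CPM per kb in the wild type. Lox stood at 25.2 ± 13.5 CPM per kb in the knockout and 16.4 ± 6.16 CPM per kb in the wild type, and Loxl2 at 22.2 ± 8.15 CPM per kb in the knockout and 12.5 ± 2.52 CPM per kb in the wild type. The order of Lox and Loxl1 was not the same in both genotypes, Lox being just above Loxl1 in the wild type. With this length Loxl1 was above Loxl2 in every library, at 12.0 against 9.92 CPM per kb in wild-type replicate 3 for example. The SDs give the spread between libraries, and differences between enzymes were not tested. Loxl3 was lower, at 9.56 ± 4.22 CPM per kb in the knockout and 7.44 ± 3.02 CPM per kb in the wild type, and Loxl4 was lowest, at 2.77 ± 0.954 CPM per kb in the knockout and 2.32 ± 0.129 CPM per kb in the wild type. The order also depended on the length used: with the median transcript length, which for Loxl3 is 617 nt against 4098 nt for the longest, Loxl2 would stand above Loxl1 in the knockout and Loxl3 above the other lysyl oxidases, at 63.5 ± 28.0 CPM per kb in the knockout and 49.4 ± 20.1 CPM per kb in the wild type.

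With the longest transcripts, the share of each enzyme in the lysyl oxidase family overlapped between the genotypes except for Loxl3; with the planned median lengths the Loxl1 share did not overlap either. Lox made up 28.8, 23.5 and 32.7% of the family's counts per kilobase in the knockout libraries, against 31.6, 27.2 and 29.9% in the wild-type libraries. Loxl1 made up 30.3, 34.7 and 29.8% in the knockout libraries, against 30.8, 29.0 and 28.5% in the wild-type libraries. For both enzymes the groups overlapped. Loxl2 averaged 25.8 ± 2.93% in the knockout and 23.2 ± 3.05% in the wild type (SD, n = 3 each). Loxl3 took 12.4, 9.27 and 11.6% in the knockout libraries, all below the 14.6, 12.5 and 12.7% in the wild-type libraries. This share had an exact two-sided permutation p of 0.1, the smallest possible, and 0.5 after Benjamini-Hochberg adjustment over the 5 enzymes. The Loxl3 difference, knockout minus wild type, was -2.20 percentage points, and it ranged from -2.85 to -1.30 with 1 library left out, the smallest being without knockout replicate 2. With median lengths it was -5.10 points. The Loxl1 share with median lengths was 16.8, 21.2 and 17.1% in the knockout libraries, all above the 16.1, 16.0 and 15.7% in the wild-type libraries. By the same exact permutation test both median-length shares had p = 0.1 and an adjusted p of 0.25. How often such shares separate among other genes was not computed, so these separations have no background to be read against. Loxl4 averaged 3.24 ± 0.425% in the knockout and 4.47 ± 1.26% in the wild type. A share within a library does not depend on the scaling between libraries.

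**Figure D4:**
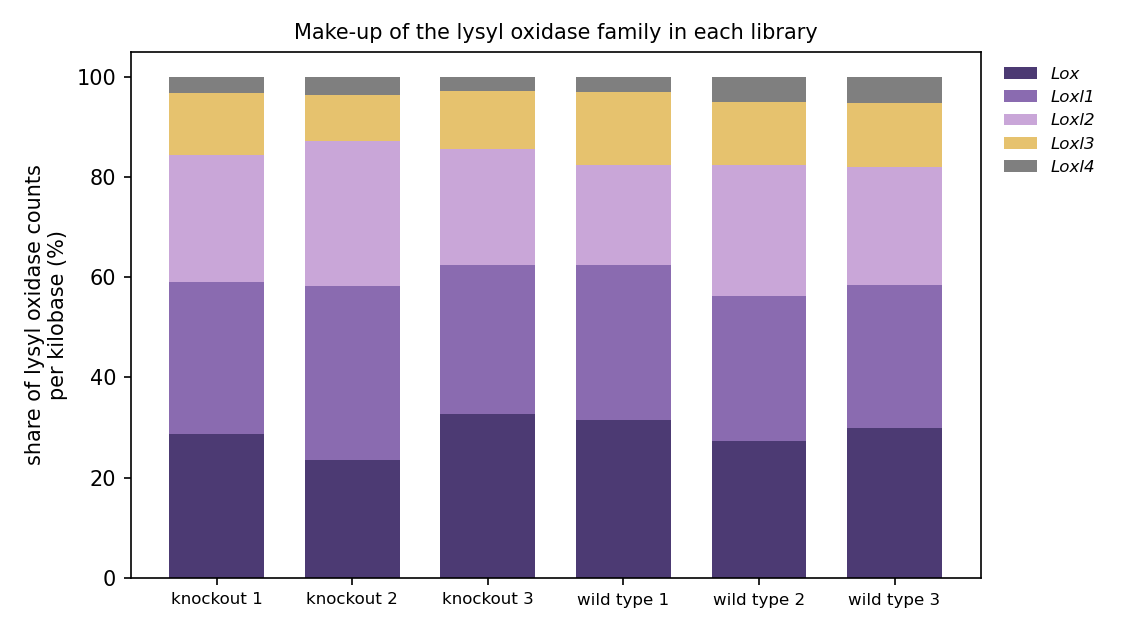
Share of each lysyl oxidase in the family's counts per kilobase of transcript (y axis, %), one bar per library, knockout libraries on the left. Lox, Loxl1 and Loxl2 fill most of every bar, and the Loxl3 share lies between 9.27% and 14.6%.

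Transcripts of the proteins that the lysyl oxidases work on or with were also higher on average in the knockout. EdgeR called none of them. DESeq2 called 2 of the scaffold genes higher and none of the substrates, against 0.18% of all genes called higher and 0.148% lower. As a background for this and the following lists, 47.7% of all genes had a fold change above 0. The lists were chosen with earlier results of these data known, so a shared direction is not a separate test. The 8 substrates are chains of collagens I, III, IV and V, and elastin; one of them, Col1a2, is also among the fibroblast markers. All 8 fold changes were positive (median 0.79). With edgeR 0 were called higher and 0 lower over all genes. Col4a2, a basement membrane chain, measured 604, 915 and 764 CPM in the knockout libraries, against 479, 502 and 405 CPM in the wild-type libraries, without overlap (log2 fold change 0.72 ± 0.21, edgeR adjusted p = 0.627). Col4a1 differed by 0.70 ± 0.21, also without overlap, and Col5a2, a chain of fibrillar collagen V, by 0.94 ± 0.35 with overlap. Eln, the elastin that Lox and Loxl1 crosslink, differed by 0.23 ± 0.26. Without replicate 3 of both groups the 8 were still above 0, with a median of 0.32. Col4a1 and Col4a2 then stood at 0.71 and 0.63, Col5a2 at 0.40 and Col5a1 at 0.37. The other substrates were closer to 0, with Col3a1 at 0.27, Col1a1 at 0.15, Col1a2 at 0.094 and Eln at 0.0515. With all libraries Col3a1, Col1a1 and Col1a2 were at 0.85, 1.03 and 0.74.

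Of 10 genes that activate or position lysyl oxidases, 10 lay above 0 (median 0.56 on the log2 scale), and edgeR called 0 higher and 0 lower. Fbn1, the microfibril protein fibrillin, and Fn1, the fibronectin that binds both Lox and Tgm2, differed by 1.19 ± 0.26 and 1.00 ± 0.25 without overlap. Both were called by DESeq2 (adjusted p = 0.0188 and 0.0349) but not by edgeR (adjusted p = 0.627 each). The proenzyme protease gene Bmp1 and the matricellular gene Postn, which binds it, were at 0.39 ± 0.39 and 0.78 ± 0.60. Efemp2, the fibulin that places Lox on elastin, was at 0.45 ± 0.25, and Fbln5, the fibulin partner of Loxl1, at 0.51 ± 0.29. Without knockout replicate 3 the median of the 10 was 0.22, with Bmp1 at 5e-04, Postn at 0.15 and Efemp2 at 0.20. Without replicate 3 of both groups 7 of the 10 lay above 0, and Bmp1 and Postn turned to -0.26 each.

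**Figure D5:**
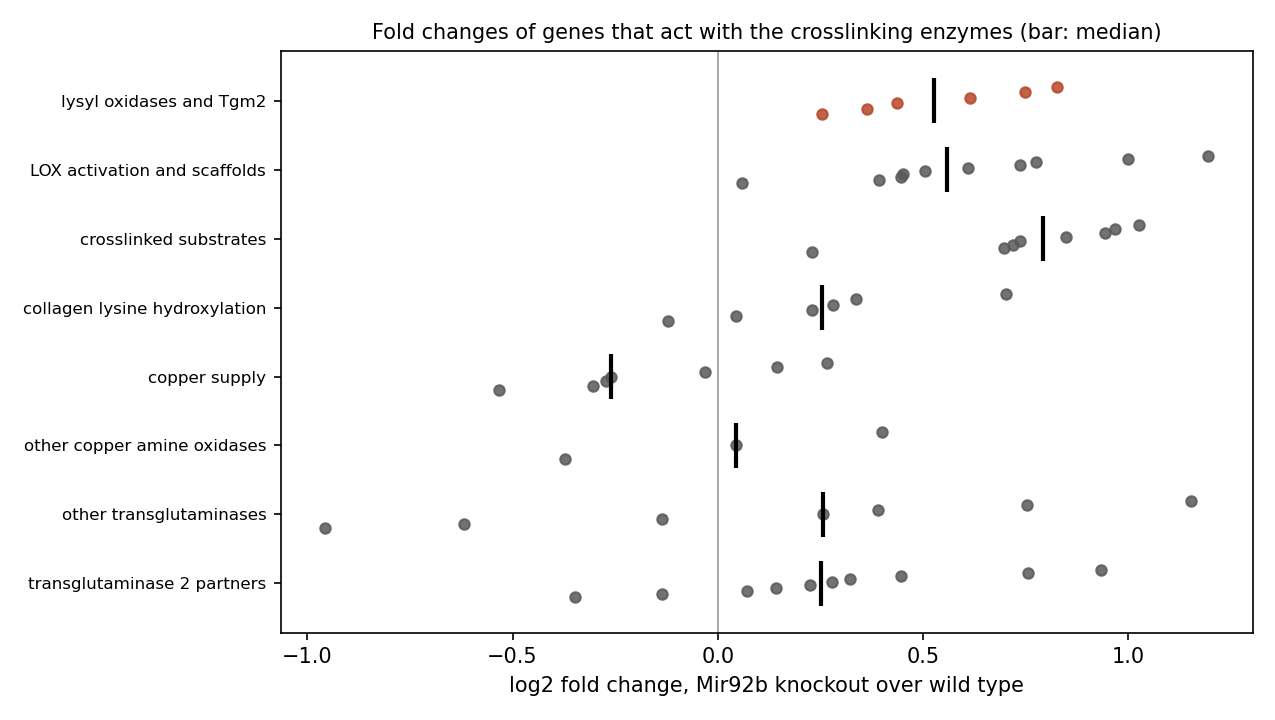
Log2 fold change, knockout over wild type (x axis), of the 6 crosslinking enzymes and of genes in 7 related lists; each point is a gene and bars are medians. The medians are 0.53 for the 6 enzymes, 0.79 for substrates and -0.26 for copper supply.

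Genes that prepare collagen lysines or supply copper showed smaller differences. Of 6 genes of collagen lysine hydroxylation and glycosylation, 5 lay above 0 (median 0.25), and edgeR called 0 higher and 0 lower. Fkbp10, a chaperone that supports telopeptide lysyl hydroxylase, had the largest fold change of the 6 (0.70 ± 0.38), at 39.3, 50.7 and 103 CPM in the knockout libraries and 55.0, 33.9 and 29.7 CPM in the wild-type libraries, with overlap. Its fold change was 0.19 without knockout replicate 3 and 0.020 without replicate 3 of both groups, where Colgalt1, a collagen galactosyltransferase, was at 0.19. Plod1 and Plod2, both lysyl hydroxylases, were at 0.34 ± 0.19 and 0.044 ± 0.13. Of 7 copper handling genes 2 lay above 0 (median -0.26), with 0 called higher and 0 lower. Among them Atp7a, the pump that carries copper into the secretory pathway where lysyl oxidases are loaded, was at 0.27 ± 0.15, with 53.1, 59.1 and 50.9 CPM in the knockout libraries and 36.7, 50.1 and 48.8 CPM in the wild-type libraries, without overlap. Atox1, which hands copper to that pump, was at -0.27 ± 0.15 with overlap. Cox17, which serves mitochondria, was at -0.53 ± 0.17. It was lower in the knockout without overlap, at 33.0, 28.0 and 30.5 CPM against 45.0, 35.6 and 51.9 CPM in the wild-type libraries. Without replicate 3 of both groups 5 of the 7 lay above 0, with a median of 0.015. With the length trend of each library removed 4 of the 7 lay above 0 (median 0.016), and Atox1 itself stood at 0.016. The median was also nearer to 0 when replicate 3 of the knockout (-0.155) or of the wild type (-0.0094) was left out alone. The copper amine oxidases outside the lysyl oxidase family, Aoc1, Aoc2 and Aoc3, were at 0.044, -0.37 and 0.40, with 0 called higher and 0 lower. Aoc2 was lower in the knockout narrowly without overlap, its nearest libraries being at 11.96 CPM in the knockout and 12.02 CPM in the wild type. Aoc3 was at -0.0605 without knockout replicate 3.

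Around transglutaminase 2, a list of 9 genes held other family members and F13b, which encodes the carrier subunit of factor XIII and not a transglutaminase. Of the 9, 7 passed the low-count filter, 4 of them above 0 (median 0.26), and edgeR called 0 higher and 0 lower. The 7 included F13b, and also Tgm4 and Tgm5, which averaged under 1 CPM. The median was -0.0345 without wild-type replicate 1, with 3 of 7 above 0, and 0.58 without wild-type replicate 3, with 6 of 7 above 0. Named by p-value among those averaging 1 CPM or more were F13a1, the coagulation transglutaminase, at 7.41, 6.72 and 32.1 CPM in the knockout libraries and 7.41, 10.2 and 3.19 CPM in the wild-type libraries, then Tgm7 and Tgm1. Without knockout replicate 3 the log2 fold change of F13a1 was 0.0235, against 1.152 with it. Tgm1, the epidermal transglutaminase, stood at 36.1, 38.9 and 28.9 CPM in the knockout libraries and 20.1, 42.5 and 96.7 CPM in the wild-type libraries; its fold change of -0.62 turned to 0.26 without replicate 3 of both groups. Of 10 partners of Tgm2, 8 lay above 0 (median 0.25), with 0 called higher and 0 lower; the median was 0.43 without knockout replicate 1. Lrp1, an endocytic receptor that takes Tgm2 off the cell surface, measured 222, 361 and 319 CPM in the knockout libraries against 199, 197 and 139 CPM in the wild-type libraries, without overlap (log2 fold change 0.76 ± 0.23, edgeR adjusted p = 0.627). The integrin subunits Itgb3 and Itgb1, which join Tgm2 in binding fibronectin, were at 0.93 ± 0.36 and 0.45 ± 0.22, and Sdc4, the syndecan coreceptor, at -0.14 ± 0.24. Itgb3 was at 0.45 without knockout replicate 3 and 0.31 without replicate 3 of both groups.

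Profiles over the 6 libraries were compared by the root mean square difference of log2 CPM, each gene centred on its own mean; a value of 0 would mean the same profile. Among the members Lox was nearest to Loxl3 (0.134) and Loxl1 nearest to Loxl2 (0.146). Tgm2 was at 0.534 to 0.690 from Lox, Loxl1, Loxl2 and Loxl3. Loxl4 stood apart from both, at 0.398 from Tgm2, 0.338 from Loxl2, 0.399 from Loxl1, 0.404 from Loxl3 and 0.436 from Lox. Among 11254 genes with a mean of at least 10 CPM, those nearest to Lox were B3gnt3 (0.0648), Fkbp10 (0.067) and Kdr (0.0775), and those nearest to Loxl1 were Tmem45a (0.0954), Col3a1 (0.119) and Flt4 (0.131). The nearest to Loxl2 were Fstl1 (0.083), Srpx2 (0.0863) and Cald1 (0.0992), and to Loxl3 Col5a3 (0.0787), Rasgrp3 (0.0808) and Cavin3 (0.0935). Loxl4 had Rgs5 (0.115), Pbx3 (0.117) and Fhl2 (0.123) nearest to it. Tgm2 had Cand1 (0.0463), Prkar2a (0.0465) and Lclat1 (0.0527), none of which was among the nearest of a lysyl oxidase. The distances are a description only.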

How the data were processed

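Per the labels' protocols, total RNA was isolated on columns and sequenced after an mRNA library preparation. The authors deposited raw read counts per gene symbol. The submitters' processing notes list GRCm38 and mm10, names of the same build; aligner, counter and strand use: not given in the sources used here. Knockout columns write the 92b of the library names as b92 and were matched by the remaining parts.

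Genes were filtered with filterByExpr (18927 kept) and scaled by TMM. The genotype effect was tested in edgeR 4.0.16 (quasi-likelihood F test, robust, R 4.3.3), with Benjamini-Hochberg adjustment over all genes and a threshold of 0.05. Standard errors are the fold change over the root of F. DESeq2 1.42.0 and limma 3.58.1 were alternatives. Log2 CPM used a prior count of 2. Exact permutation tests used SciPy 1.17.1. The pipeline was tested on simulated counts. Between any pair of libraries chi-square per degree of freedom was at least 31.1, so none was a copy.

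Members, lists and tests were chosen with earlier results of these data known. From each list up to 3 genes were named by lowest p among those averaging 1 CPM or more. Named after values were seen were Eln, Bmp1, Postn, Fbln5, Plod2 and Sdc4 for their role, and the marker genes for their role or level. Col1a1, Col1a2, Col3a1 and Col5a1 were also named after values were seen, to give the whole substrate list. The profile comparison took members with a mean of at least 5 CPM. The median transcript length was planned as the main length; once the annotation was read it proved to be set by short transcript models for Loxl3 (617 nt) and Tgm2 (1312 nt), so the longest GENCODE M21 transcript was used, a change made after the data were seen, and the planned median is given as the alternative. Gene coordinates come from RefSeq (GRCm38.p6), where all 34714 symbols were found. Seed matches used the longest annotated 3′ UTR of GENCODE M21 coding transcripts.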

Additional observations from a re-analysis of the deposited data

How the results depend on the processing

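With edgeR and all libraries, 0 genes were called higher and 0 lower over the whole table; DESeq2 called 34 higher and 28 lower, limma-voom 1 and 2, and the fit without a filter 1 and 1. At an unadjusted p under 0.05 edgeR had 829 higher and 666 lower genes. Leaving out 1 library gave 0 to 1 called higher and 0 lower, and leaving out replicate 3 of both groups gave 1 called higher. No crosslinking enzyme was called under any setting run. Leaving out 1 library moved the log2 fold change of Lox between 0.092 and 0.96, Loxl1 between 0.48 and 1.07, Loxl2 between 0.60 and 1.10, Loxl3 between -0.052 and 0.74, Loxl4 between 0.060 and 0.51 and Tgm2 between 0.24 and 0.61. Without replicate 3 of both groups Lox was at -0.065 and Loxl3 at -0.24. Under the other scalings, filters, tools and the removed length trend all 6 stayed above 0, with the lowest value, 0.17, for Loxl4 with limma-voom.

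The replicate block gave Lox 0.55, Loxl1 0.73, Loxl2 0.77, Loxl3 0.35, Loxl4 0.19 and Tgm2 0.47, with 1 gene of the table called higher. Same-numbered libraries deviated from their group means with correlations of -0.282, 0.179 and -0.288, so the numbers were not taken to pair the libraries.

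The Lox share of the family, lower by 1.23 percentage points in the knockout, was higher by 0.436 points with median transcript lengths and ranged from -3.43 to 1.19 points with 1 library left out. Relative to fibroblast markers, Lox ranged from -0.18 to 0.034 and Tgm2 from -0.61 to 0.22 with 1 library left out. With endothelial markers Lox, Loxl3 and Tgm2 turned to 0.29, 0.093 and 0.22. List medians under the same alternatives were added after the data were seen. The cause of these shifts was not tested. With 3 libraries a group, the 95% intervals of the fold changes are wide, Lox for example running from -0.31 to 1.54, and a missed call does not show that the genotypes had like levels.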
